A study of Mus musculus with 57 samples.

Results

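Interferon-stimulated genes are the genes that cells switch on when interferons reach their receptors. The 41 genes followed here are the classical antiviral members of that program: the transcription factors Irf1, Irf7, Irf9 and Stat2, sensors of viral nucleic acid, enzymes of the Oas family, Ifit and Ifitm proteins, and regulators such as Usp18. A gene was taken as measured when a probe set of the array carried its symbol and no other, and where several probe sets did, the one with the highest mean was used. By that rule 38 of the 41 genes were found among 19938 genes measured. Isg15 was not found, because its probe set is shared with Gm9706, Gbp2 was not found, because its probe set is shared with Gbp2b, and Ifi44 had no probe set. Irf1 and Ifitm1 had 2 probe sets each and Ifitm2 had 3. All 38 passed the filter on low values in the arrays of purified RNA (log2 intensity over 5 in at least 3 arrays).

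The study used translating ribosome affinity purification (TRAP), in which a GFP-tagged ribosomal protein L10a is pulled down with the mRNA that its ribosomes carry, so that 1 cell lineage can be read out of a whole kidney. The tag (Rosa26-CAGGS-eGFPL10a) was switched on by 1 of 4 Cre drivers: six2-CRE for the nephron, foxd1-CRE for the interstitium, cdh5-CRE for the vascular endothelium and lyz2-CRE for myeloid cells. Because a Cre marks a cell and all that descend from it, each line reports a lineage and not a sorted cell type, and Foxd1 is also normally expressed in podocytes. Kidneys of male mice had both renal pedicles clamped for 28 min and were collected 24 h later (ischemia-reperfusion injury, IRI), or had sham surgery without clamping, or no surgery, with 3 arrays for each state of each line. The nephron line had 3 further arrays at 4 h after clamping, for which the 24 h sham arrays served as the control. Endothelial and interstitial mice were 6 weeks old. Nephron mice were 8 weeks old except those without surgery, at 6 weeks, and myeloid mice were 9.5 weeks old after IRI and 7 weeks old otherwise. Both kinds of background mice and the mice for total RNA were 8 weeks old. The strain was given as mixed C57BL/6 and 129.

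RNA that comes down without Cre was measured by running the purification on L10a mice and wild-type mice, each with 4 arrays after IRI and 2 after sham surgery. These backgrounds did not hold the same RNA. Collecting duct markers summed to 28291 to 29309 in L10a sham arrays and to 6515 to 6597 in wild-type sham arrays, and the reason was not tested. The labels of the wild-type mice give a mixed background in one field and C57BL/6 in another. The L10a background mice are called homozygous in one label and heterozygous in another. Total kidney RNA came from L10a mice without Cre (3 IRI and 3 sham arrays). The labels call the arrays of a group biological replicates, and the p-values below measure only the spread between these samples.

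Interferons of type I signal through Ifnar1 and Ifnar2 and the kinases Jak1 and Tyk2 to a complex that includes Stat2 and Irf9 and binds the interferon-stimulated response element (ISRE) in the promoters of its targets. Interferon-gamma signals through another receptor, and many of its targets carry the gamma-activated site (GAS). Irf7 feeds forward into more interferon production, and Usp18 removes Isg15 from proteins and shuts the type I receptor down. Many cells of an unstimulated tissue keep a low, tonic level of the program, and injured kidneys can raise it when nucleic acid leaks from dying cells.

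The letters of the ISRE were looked for in the annotated promoters of the members, since the program is defined by that element. The RefSeq table of the build GRCm38.p6 held promoters for 28 of the 38 measured members, each spanning 250 bases before and 50 bases after a start site. The ISRE core, GAAA and again GAAA with any 2 bases between them, on either strand, was present in 13 of those 28 genes (46.4%) against 3.99% of all genes in the table. The GAS letters TTCNNNGAA were present in 9 of the 28 genes (32.1%) against 9.55% of all genes. The following 30-base stretches show the ISRE match, in capitals, in members whose values are described below, written 5′ to 3′ along the gene. Where several matches overlap, the capitals cover them all.
Ifit3, chr19:34583363-34583392, plus strand: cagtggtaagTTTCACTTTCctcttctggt
Oas1a, chr5:120907526-120907555, minus strand: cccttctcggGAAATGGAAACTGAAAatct
Trim30a, chr7:104465210-104465239, minus strand: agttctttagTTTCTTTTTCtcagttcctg
Stat2, chr10:128270266-128270295, plus strand: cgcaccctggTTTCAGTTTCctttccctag
Bst2, chr8:71537583-71537612, minus strand: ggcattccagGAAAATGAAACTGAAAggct
Gbp3, chr3:142559989-142560018, plus strand: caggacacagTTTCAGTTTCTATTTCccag
Ifit1, chr19:34640775-34640804, plus strand: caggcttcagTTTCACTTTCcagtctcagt

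The 3 Ifitm genes lie near each other on chromosome 7, and they are shown whole because their responses differed most among neighbouring members, a choice made after their values were seen. The ISRE core was present once in the Ifitm2 promoter, beginning 46 bases before the start site, and at 2 places just after the start site in Ifitm3 (capitals). The Ifitm1 window did not hold these letters.
Ifitm1, chr7:140967826-140968125, plus strand: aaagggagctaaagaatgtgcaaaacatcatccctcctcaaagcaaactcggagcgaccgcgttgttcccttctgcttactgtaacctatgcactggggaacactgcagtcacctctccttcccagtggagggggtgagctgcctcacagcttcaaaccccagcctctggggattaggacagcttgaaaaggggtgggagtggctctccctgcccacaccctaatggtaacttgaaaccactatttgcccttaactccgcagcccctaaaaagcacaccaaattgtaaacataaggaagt
Ifitm2, chr7:140955912-140956211, minus strand: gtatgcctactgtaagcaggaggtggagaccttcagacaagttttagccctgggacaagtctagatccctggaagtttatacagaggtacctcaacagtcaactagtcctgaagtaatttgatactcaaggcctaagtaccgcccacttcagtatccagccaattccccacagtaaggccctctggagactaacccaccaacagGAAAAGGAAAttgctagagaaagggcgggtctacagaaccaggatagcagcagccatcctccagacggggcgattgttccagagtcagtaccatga
Ifitm3, chr7:141010695-141010994, minus strand: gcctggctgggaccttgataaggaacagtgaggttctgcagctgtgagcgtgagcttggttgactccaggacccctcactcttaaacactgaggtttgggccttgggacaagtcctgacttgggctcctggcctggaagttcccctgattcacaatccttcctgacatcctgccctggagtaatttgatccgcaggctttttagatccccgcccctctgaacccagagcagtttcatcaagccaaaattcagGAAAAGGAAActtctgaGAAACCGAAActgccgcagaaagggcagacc

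The promoters of Samd9l and Trim25 are given as those of members that moved the same way in all 4 lines. Neither window held the ISRE core or the GAS letters, nor did those of Cmpk2 and Herc6. A match is a description of letters and not of binding, and the lack of one says only that the letters were not in this window.
Samd9l, chr6:3399522-3399821, minus strand: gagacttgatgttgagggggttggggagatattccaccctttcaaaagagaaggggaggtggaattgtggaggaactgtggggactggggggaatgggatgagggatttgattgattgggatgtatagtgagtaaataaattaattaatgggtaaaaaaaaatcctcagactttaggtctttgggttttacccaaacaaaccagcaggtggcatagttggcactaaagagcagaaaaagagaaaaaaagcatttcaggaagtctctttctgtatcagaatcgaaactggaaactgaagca
Trim25, chr11:88999153-88999452, plus strand: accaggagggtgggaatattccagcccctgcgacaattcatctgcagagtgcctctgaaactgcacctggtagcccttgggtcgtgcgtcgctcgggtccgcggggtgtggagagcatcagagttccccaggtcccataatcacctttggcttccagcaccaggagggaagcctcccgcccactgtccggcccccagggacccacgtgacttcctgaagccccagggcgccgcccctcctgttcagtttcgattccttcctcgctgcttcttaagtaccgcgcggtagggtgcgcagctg

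Across the series, the arrays of purified RNA had median intensities between 105.8 and 128.4, and the total RNA arrays, on another scale, between 43.9 and 53.3. Total RNA IRI replicate 3 stood apart, with the median of 53.3 and a mean correlation of 0.929 (Pearson, log2 values) with the other arrays of its group. The wild-type background arrays after IRI also varied, with mean correlations of 0.9775, 0.982, 0.9867 and 0.9882, against 0.9969 for its sham arrays. Their adipocyte marker sum ran from 731 to 8352. The fit used a shared estimate of the spread over the 17 groups. Without surgery, each line was higher than the mean of the other 3 lines for most of its own markers. That held for 10 of 10 endothelial markers in the endothelial line, 10 of 11 interstitial, pericyte and mesangial markers in the interstitial line, 13 of 13 markers of mononuclear phagocytes (macrophage, dendritic cell and monocyte genes) in the myeloid line, and 7 of 9 proximal tubule markers in the nephron line. The endothelial line was also higher for 13 of 13 macrophage markers and 12 of 13 lymphocyte markers. The summed intensity of those 13 genes was 36311 to 38460 in endothelial arrays, 62123 to 64872 in myeloid arrays, 7051 to 13545 in interstitial arrays and 2111 to 2278 in nephron arrays, all without surgery. The interstitial line was higher for 5 of 5 adipocyte markers. The proximal tubule marker sum without surgery was 56210 to 57589 in nephron arrays and 38604 to 51327 in interstitial arrays. It was 28621 to 43824 in endothelial arrays and 32858 to 42728 in myeloid arrays. In such bulk samples, fewer cells of a type and less RNA per cell cannot be told apart.

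Before any surgery, the interferon-stimulated genes were lowest in the nephron and highest in the endothelial and myeloid lineages. Of the 38 members, 36 had their lowest mean in the nephron line, and 19 had their highest mean in the endothelial line, 16 in the myeloid line, 3 in the interstitial line and none in the nephron line. The median of the 38 members was 7.52 to 7.68 in the nephron arrays, 8.80 to 9.38 in the interstitial arrays, 10.00 to 10.27 in the myeloid arrays and 10.31 to 10.50 in the endothelial arrays (log2 intensity). The endothelial and myeloid ranges lay close together, and both lay above the others. The macrophage marker sums given above rank the nephron lowest and the interstitium next, and their part in the result was not tested.

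**Figure D1:**
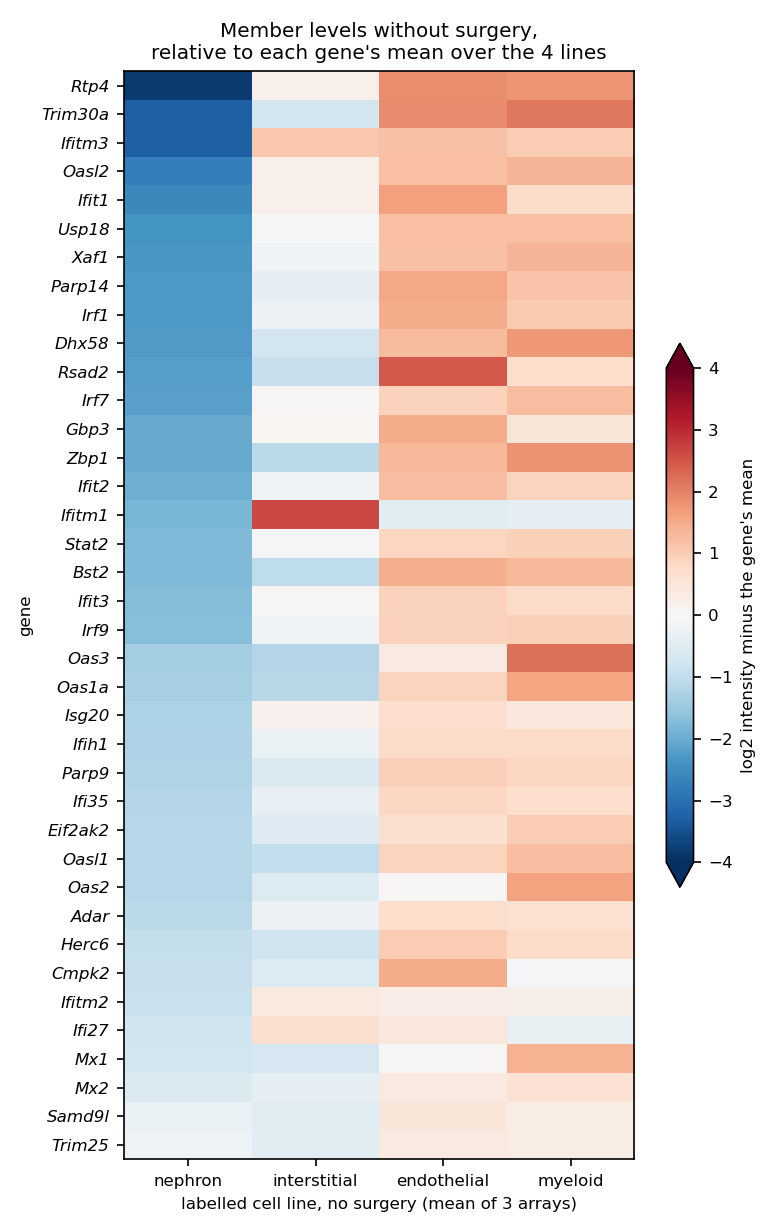
Each row is 1 member and each column 1 line of mice without surgery (mean of 3 arrays); the colour is the log2 intensity minus that gene's mean over the 4 lines, so colours compare lines within a gene and not genes with each other. The nephron column is the lowest in 36 of 38 rows, and Ifitm1 stands out as high in the interstitial line.

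Against the mean of the other 3 lines, all 38 members were lower in the nephron (38 of 38 called at an adjusted p under 0.05; 56.2% of all genes were called either way and 23.7% lower), with a median difference of -2.29 against 0.06 for all genes. The widest gap belonged to Rtp4, a chaperone of membrane receptors, which read 5.66, 6.28 and 5.62 in the nephron arrays, 9.40, 10.45 and 9.79 in the interstitial arrays, 11.64, 11.57 and 11.37 in the endothelial arrays and 11.24, 11.68 and 11.47 in the myeloid arrays. The nephron values stood apart from all others, and the endothelial and myeloid values overlapped. Its nephron difference was -5.10 ± 0.20 (log2, SE, adjusted p = 7.6e-23). Trim30a, a regulator of inflammatory signalling, differed by -4.36 ± 0.12 (adjusted p = 4.7e-28) and Ifitm3 by -4.33 ± 0.13 (adjusted p = 1.2e-26). Oasl2 (-3.66), Ifit1 (-3.46) and Usp18 (-3.20) followed.

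In the endothelial line 35 members were higher and 1 lower than in the mean of the other lines (46.0% of all genes called either way, 22.9% higher and 23.1% lower), with a median of 1.23. In the myeloid line the counts were also 35 and 1 (42.4% either way, 18.8% higher and 23.6% lower), with a median of 1.26. Both lines shared the exception: Ifitm1 was lower by 0.56 ± 0.12 in one (adjusted p = 1.5e-04) and by 0.52 ± 0.12 in the other (adjusted p = 4.0e-04). The leading genes were not identical. Rsad2 (viperin, which makes a chain-terminating nucleotide) led the endothelial list, at 11.45, 11.51 and 11.49 against 9.31, 9.95 and 9.94 in the myeloid line. Oas3, a synthetase of the RNase L activator, led the myeloid list, at 9.41, 10.04 and 9.93 against 8.18, 7.78 and 7.88 in the endothelial line. Rsad2 was therefore higher in every endothelial array than in any myeloid array, and Oas3 the other way round. Rsad2 exceeded the other lines by 3.25 ± 0.16 (adjusted p = 4.5e-20) in the endothelium and Oas3 by 2.94 ± 0.15 (adjusted p = 4.7e-19) in the myeloid line.

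The interstitial line lay in between, with 4 members higher and 21 lower (38.8% of all genes called either way, 23.6% lower) and a median of -0.40. The 4 higher members were the 3 Ifitm genes and Ifi27. Ifitm1, a membrane protein that blocks the fusion of enveloped viruses, read 12.39, 12.37 and 12.29 in the interstitial arrays without surgery against 9.16 to 9.40 in the endothelial arrays, 8.87 to 9.54 in the myeloid arrays and 7.70 to 8.03 in the nephron arrays. Its interstitial level did not overlap with any other line, and the difference was 3.52 ± 0.12 (adjusted p = 2.6e-24). The lowest interstitial members relative to the other lines were Oas3 (-1.59), Oas1a (-1.49), Zbp1 (-1.45), Bst2 (-1.34), Oasl1 (-1.30) and Rsad2 (-1.23).

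At 24 h after IRI, the members rose more often than they fell in the nephron and fell more often than they rose in the other lineages. In the nephron, 14 members rose and 3 fell relative to sham (35.0% of all genes were called either way, 16.6% higher and 18.4% lower), and the median member difference was 0.29 against -0.04 for all genes. In the interstitium 2 rose and 18 fell (45.5% of all genes either way, 22.7% higher and 22.8% lower; median -0.41 against 0.05). In the endothelium 5 rose and 20 fell (49.5%, 25.1% higher and 24.3% lower; median -0.49 against 0.07). Among myeloid arrays 2 rose and 25 fell (34.1%, 16.3% higher and 17.8% lower; median -0.61 against -0.02). The nephron count depends on 1 array: without sham replicate 1, 9 members rose and 2 fell, with Irf9, Trim25, Eif2ak2, Adar, Ifitm2 and Herc6 no longer called.

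**Figure D2:**
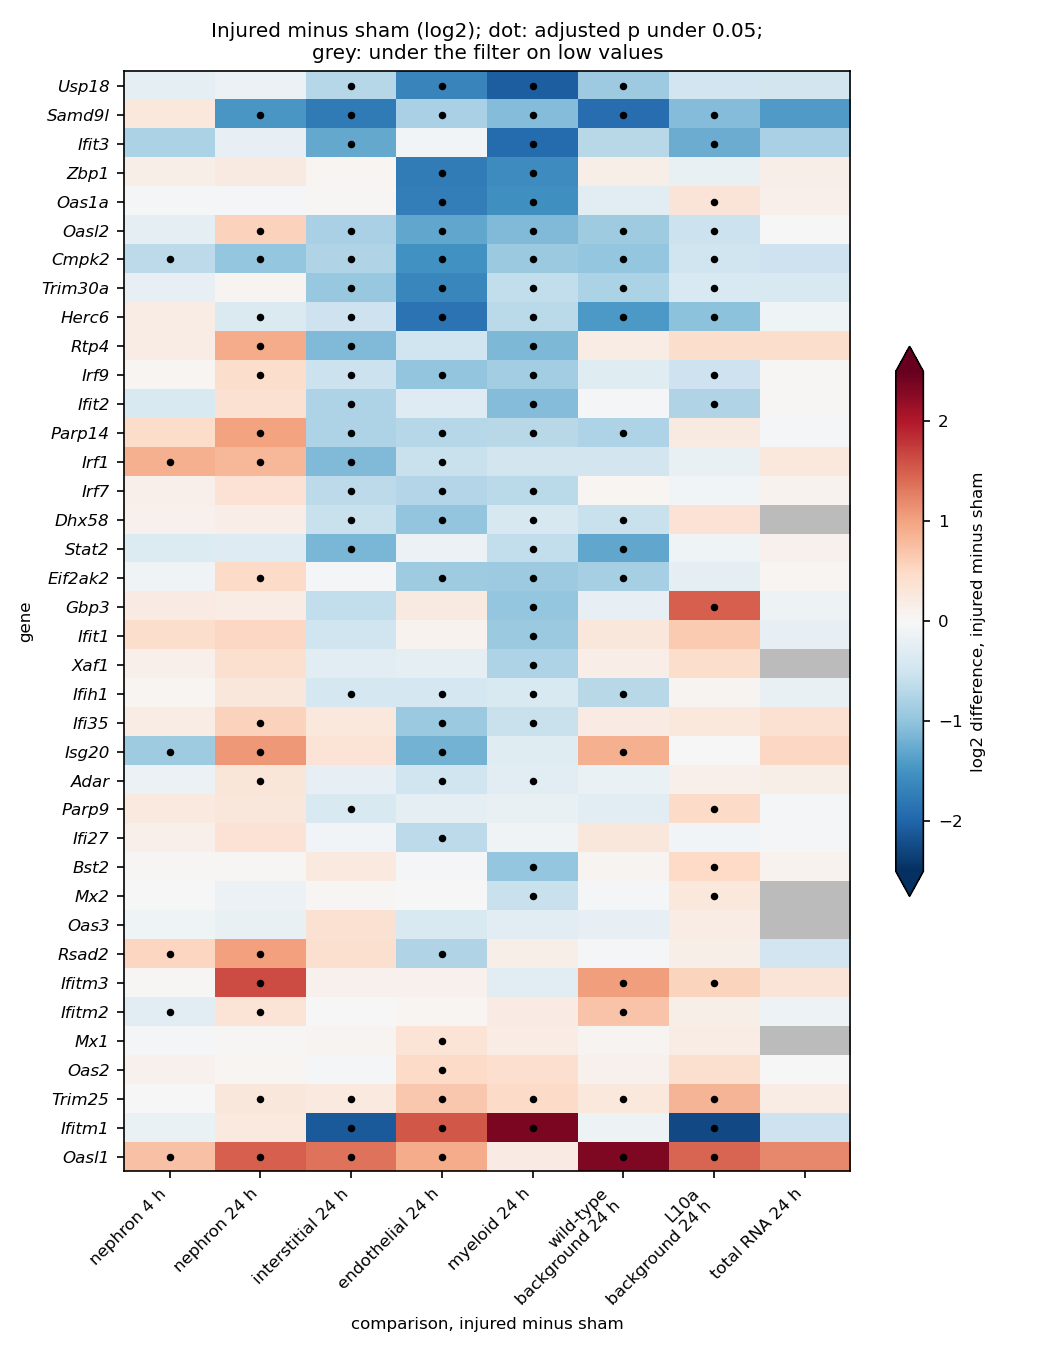
Each row is 1 member and each column 1 comparison of injured with sham samples; the colour is the log2 difference, a dot marks an adjusted p under 0.05, and grey cells did not pass the filter on low values. Blue with dots outnumbers red with dots in the interstitial, endothelial and myeloid columns (18, 20 and 25 of 38 members fell). The nephron column at 24 h is mostly red (14 rose), and Ifitm1 runs from -2.10 in the interstitial column to 2.35 in the myeloid column.

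These responses ran beside shifts in cell markers. Neutrophil markers rose in 9 of 12 genes in the interstitium, 12 of 12 in the endothelial line, 10 of 12 in the myeloid line and 1 of 12 in the nephron, and their summed intensity went from 3101 to 4154 in myeloid sham arrays to 21798 to 29526 after IRI, and from 1937 to 3867 to between 15125 and 16500 in the endothelial line. The macrophage markers fell in 8 of 13 genes in the interstitium (2 rose), 9 of 13 in the endothelium (1 rose) and 4 of 13 in the myeloid line (2 rose). Their sum went from 38419 to 44986 down to 22546 to 30916 in the endothelial arrays, and from 61381 to 65881 to between 54789 and 61530 in the myeloid arrays. The chemokine receptor gene Cx3cr1, a marker of resident mononuclear phagocytes, changed by -3.67 in the endothelial and -2.93 in the myeloid line. The sum of 3 inflammatory monocyte markers went from 3487 to 3720 up to 4192 to 6384 in the myeloid line. It went from 239 to 281 up to 341 to 349 in the interstitium, and from 1584 to 2046 down to 422 to 457 in the endothelium. Lymphocyte markers fell in 8 of 13 genes in the endothelial line, with a sum of 1947 to 2379 after sham and 1180 to 1235 after IRI. In the nephron 3 of 13 macrophage markers rose and 1 fell, their sum went from 1978 to 2039 up to 3356 to 4000, and 5 of 10 endothelial markers rose. Of 8 marker genes for the distal tubule and the thick ascending limb, 5 fell in the nephron, 6 in the interstitium, 3 in the endothelium and 7 in the myeloid line. Of 9 proximal tubule markers, 4 fell in the nephron, 8 in the interstitium, 4 in the endothelium (1 rose) and 9 in the myeloid line. The sum of the latter after sham surgery was 52920 to 55083 in nephron arrays and 53034 to 56709 in interstitial arrays. The injured myeloid mice were 9.5 weeks old and their sham controls 7 weeks, so age and injury cannot be told apart in that line. The part of these shifts in the member differences was not tested.

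Among the transcription factors, Irf9, the DNA-binding subunit of the type I complex, changed in all 4 lines but not in the same direction. In the nephron it read 7.95, 8.10 and 8.24 after sham and 8.46, 8.58 and 8.51 after IRI, without overlap, a rise of 0.43 ± 0.13 (adjusted p = 0.0095) that was not called without sham replicate 1. In the interstitium it read 9.79, 9.61 and 9.60 after sham and 9.14, 8.94 and 9.33 after IRI. In the endothelium it read 10.88, 10.66 and 10.78, then 9.52, 9.94 and 9.91. Myeloid arrays read 10.82, 10.87 and 10.79, then 9.84, 10.13 and 9.90. Every injured array of these 3 lines was below every sham array, and Irf9 fell by 0.53 ± 0.13 (adjusted p = 0.0010), 0.98 ± 0.13 (adjusted p = 5.9e-08) and 0.87 ± 0.13 (adjusted p = 1.3e-06). Even after the fall, the endothelial and myeloid levels stayed above every nephron array.

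Stat2, the other dedicated subunit of that complex, fell in the interstitium from 9.43, 9.19 and 9.24 to 8.05, 8.00 and 8.38, a change of -1.14 ± 0.14 (adjusted p = 6.7e-09). It also fell in the myeloid line, by 0.61 ± 0.14. Its difference was -0.15 ± 0.14 in the endothelium (95% interval -0.42 to 0.13) and -0.32 ± 0.14 in the nephron, neither of which passed the test. Irf7, the amplifier of interferon production, fell in the interstitium (-0.66), the endothelium (-0.73) and the myeloid line (-0.68), and its nephron difference of 0.37 was not called.

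Irf1, which is induced by both kinds of interferon and by other inflammatory signals, read 7.73, 7.57 and 8.03 in nephron sham arrays and 8.56, 8.86 and 8.42 after IRI, a rise of 0.83 ± 0.20 (adjusted p = 8.5e-04). It fell in the interstitium by 1.10 ± 0.20 and in the endothelium by 0.55 ± 0.20, and the myeloid difference of -0.46 was not called. The endothelial call was lost in some fits with 1 array left out, those without IRI replicate 1, IRI replicate 2 or sham replicate 3. Its probe sets disagreed: the second gave -0.05 ± 0.11 in the nephron, the opposite sign with no call, and -0.22 in the interstitium, also not called.

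Usp18, the brake on the type I receptor, showed the largest fall of any member in the myeloid line. It read 10.65, 10.77 and 10.47 after sham and 8.26, 8.95 and 8.49 after IRI, a fall of 2.07 ± 0.19 (adjusted p = 4.6e-11). In the endothelium it read 11.01, 10.65 and 10.76 after sham and 8.95, 9.16 and 9.35 after IRI, a fall of 1.65 ± 0.19 (adjusted p = 3.6e-09). In the interstitium it went from 9.56, 9.23 and 9.03 to 8.64, 8.18 and 8.87, a smaller fall of 0.72 ± 0.19. The nephron arrays overlapped, at 7.39, 7.45 and 7.50 after sham and 7.07, 7.43 and 7.39 after IRI, and no change was called.

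**Figure D3:**
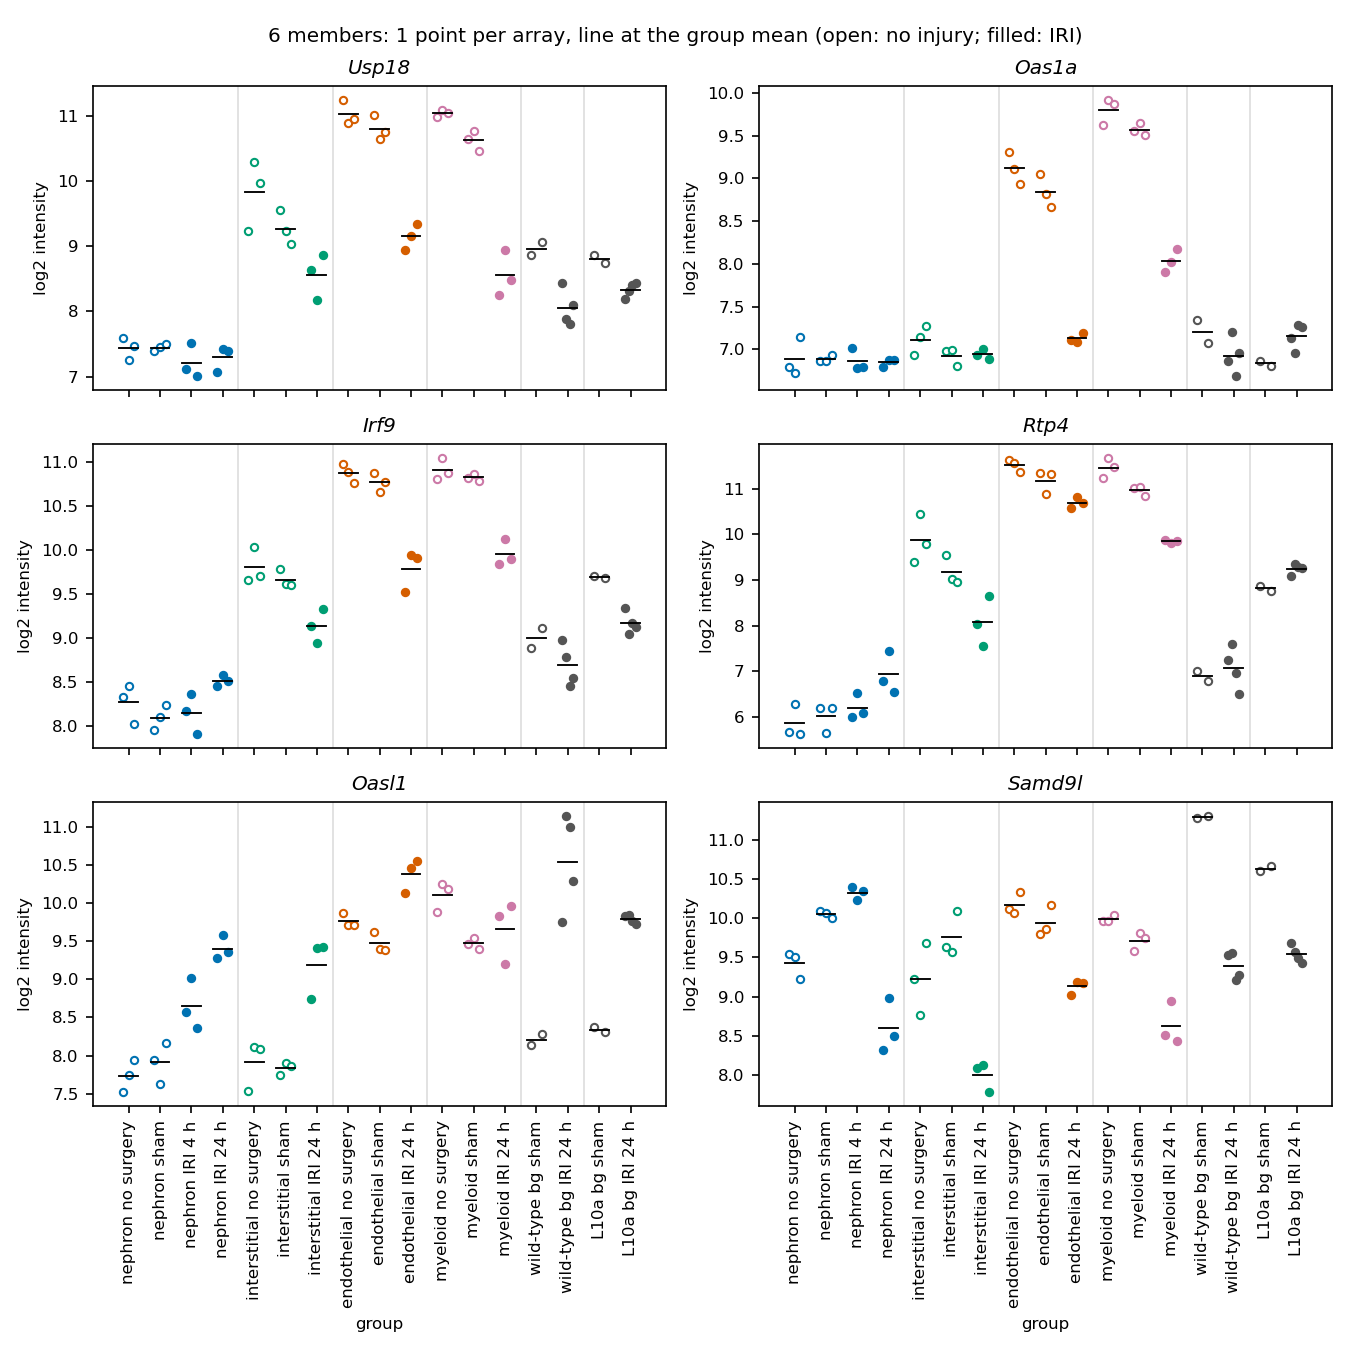
Each point is 1 array and each short line a group mean of log2 intensity, with open points for uninjured and filled points for IRI samples; bg stands for the background purifications without Cre. Usp18, Oas1a and Irf9 drop after IRI in the endothelial and myeloid lines, Rtp4 rises in the nephron and falls in the interstitial and myeloid lines, Oasl1 is higher after IRI in the nephron, interstitial and endothelial lines and in both backgrounds, and Samd9l is lower after IRI at 24 h in all 4 lines and both backgrounds.

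The sensors and nucleic-acid binding proteins differed by line. Zbp1, a sensor of Z-form nucleic acid that can trigger necroptosis, read 10.31, 10.28 and 10.17 in endothelial sham arrays and 8.38, 8.63 and 8.52 after IRI. Myeloid arrays read 10.89, 10.81 and 10.99, then 9.20, 9.41 and 9.35. Neither pair of groups overlapped, and the falls were 1.74 ± 0.16 (adjusted p = 9.9e-12) and 1.57 ± 0.16 (adjusted p = 2.8e-10). In the nephron and interstitium Zbp1 differed by 0.22 and 0.05, with no call.

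Ifih1 (MDA5) and Dhx58 (LGP2), helicases that bind viral double-stranded RNA, fell in the interstitial, endothelial and myeloid lines. The largest of these changes was -0.99 for Dhx58 in the endothelium, the myeloid call of Ifih1 was lost without IRI replicate 3, and that of Dhx58 without any of 5 arrays in turn. The interstitial call of Dhx58 was lost without IRI replicate 1. Eif2ak2 (PKR), a kinase that halts translation on double-stranded RNA, rose in the nephron by 0.48 and fell in the endothelium by 0.89 and in the myeloid line by 0.91. Adar, an editor of double-stranded RNA, rose in the nephron by 0.30 and fell in the endothelium by 0.50 and in the myeloid line by 0.26. The nephron calls of Eif2ak2 and Adar were among those lost without sham replicate 1, and the myeloid call of Adar was lost without any of 5 arrays in turn.

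Of the ADP-ribosyltransferases, Parp14 went from 6.59, 6.63 and 7.05 to 7.91, 7.88 and 7.51 in the nephron, a rise of 1.01 ± 0.18 (adjusted p = 1.4e-05). The same gene fell in the interstitium (-0.78), the endothelium (-0.71) and the myeloid line (-0.69). Its partner Parp9 fell in the interstitium by 0.39 and was not called in the other 3 lines, although its endothelial fall was called when only the groups compared were fitted. The ubiquitin ligase Herc6, which attaches Isg15 in mice, fell in all 4 lines, most in the endothelium, where it went from 9.30, 9.14 and 9.01 to 7.46, 7.25 and 7.22 (-1.84 ± 0.14, adjusted p = 1.3e-13). The nephron fall of Herc6 was 0.36 (adjusted p = 0.044) and was not called in 4 of the 6 fits that left out 1 nephron array. Trim30a fell in the endothelium by 1.64, in the interstitium by 0.94 and in the myeloid line by 0.61.

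Trim25, a ubiquitin ligase that activates RIG-I, was the only member called higher in all 4 lines. The rises were small: 0.29 in the nephron, 0.24 in the interstitium, 0.68 in the endothelium and 0.48 in the myeloid line. The interstitial call (adjusted p = 0.048) was lost when IRI replicate 2, IRI replicate 3, sham replicate 2 or sham replicate 3 was left out, and the nephron call when IRI replicate 2 or sham replicate 1 was. Trim25 rose in both backgrounds as well, by 0.26 in wild-type mice (a call lost in 4 of the 6 fits without 1 array) and by 0.84 in L10a mice.

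The 3 members that fell in all 4 lines were Samd9l, Cmpk2 and Herc6. Samd9l, an antiviral factor that restrains cell growth, read 10.10, 10.07 and 10.01 in nephron sham arrays and 8.32, 8.98 and 8.50 after IRI. In the interstitium it read 9.64, 9.57 and 10.09, then 8.09, 8.13 and 7.78. The groups were apart in both, with falls of 1.46 ± 0.16 (adjusted p = 2.4e-09) and 1.76 ± 0.16 (adjusted p = 2.2e-11), and the endothelial and myeloid falls were 0.81 and 1.08. Cmpk2, a mitochondrial nucleotide kinase that lies beside Rsad2, fell by 0.97, 0.75, 1.52 and 0.93 in the nephron, interstitial, endothelial and myeloid lines. All 3 genes also fell in both background purifications: Samd9l by 1.90 in wild-type and 1.09 in L10a mice, Cmpk2 by 0.97 and 0.49, and Herc6 by 1.44 and 1.02. In total RNA, Samd9l read 9.20, 9.58 and 9.30 after sham and 8.79, 7.98 and 7.05 after IRI, without overlap, but the difference of -1.42 was not called.

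The Oas family, which makes the activator of RNase L, split by member. Oas1a read 9.05, 8.82 and 8.67 in endothelial sham arrays and 7.11, 7.09 and 7.19 after IRI, and 9.55, 9.65 and 9.51 in myeloid sham arrays and 7.91, 8.02 and 8.17 after IRI. These falls, of 1.72 ± 0.12 (adjusted p = 6.3e-15) and 1.54 ± 0.12 (adjusted p = 2.0e-13), left the endothelial arrays near the nephron arrays after IRI, at 6.79 to 6.88. Oas2 rose in the endothelium by 0.47, a call that was lost when IRI replicate 1, IRI replicate 3 or sham replicate 3 was left out. Oas3 was called in none of the 4 lines, with differences of -0.19, 0.38, -0.38 and -0.29. It was called in the endothelium when only the groups compared were fitted or sham replicate 3 was left out, in the interstitium without IRI replicate 1 and in the myeloid line without IRI replicate 3. The related gene Oasl2 rose in the nephron by 0.57, a call lost without IRI replicate 2 or sham replicate 2, and fell by 0.82 in the interstitium, 1.29 in the endothelium and 1.10 in the myeloid line.

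Oasl1, which represses translation of Irf7 mRNA, was the member with the broadest sizeable rise. In the nephron it read 7.94, 7.62 and 8.17 after sham and 9.28, 9.58 and 9.36 after IRI. In the interstitium it read 7.75, 7.90 and 7.86, then 8.74, 9.41 and 9.43. In the endothelium it read 9.63, 9.40 and 9.39, then 10.14, 10.47 and 10.56. None of these pairs overlapped, and the rises were 1.50 ± 0.23 (adjusted p = 1.6e-06), 1.36 ± 0.23 (adjusted p = 5.8e-06) and 0.92 ± 0.23 (adjusted p = 0.0010). The myeloid arrays overlapped (9.47, 9.55 and 9.40 against 9.84, 9.20 and 9.96). Wild-type background arrays read 8.14 and 8.28 after sham and 9.75, 11.15, 11.01 and 10.29 after IRI, a rise of 2.34 ± 0.24 (adjusted p = 2.6e-10). The estimate was above that of each tagged line, a difference that was not tested. After IRI Oasl1 was lower in the nephron than in the wild-type background by 1.15 and lower in the interstitium by 1.36.

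The Ifit proteins bind foreign RNA through its 5′ end. In the myeloid line all 3 genes measured fell: Ifit3 by 1.93 ± 0.31 (adjusted p = 4.3e-06), Ifit2 by 1.09 and Ifit1 by 0.93, the last not called without IRI replicate 2. Ifit3 went from 11.27, 11.39 and 11.14 to 9.42, 9.17 and 9.43 there. In the endothelium the same gene hardly moved, at 11.43, 11.19 and 11.59 after sham and 11.31, 11.36 and 11.33 after IRI (-0.07 ± 0.31, 95% interval -0.70 to 0.56). In the interstitium Ifit3 fell by 1.27 ± 0.31 and Ifit2 by 0.78. None of the 3 passed the test in the nephron, where Ifit3 scattered widely after IRI (7.81, 9.72 and 9.45).

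Rsad2 rose in the nephron from 6.84, 6.82 and 6.78 to 7.79, 8.00 and 7.74 (1.03 ± 0.19, adjusted p = 3.4e-05) and fell in the endothelium from 11.88, 12.07 and 11.68 to 11.02, 11.17 and 11.17 (-0.76). Isg20, an exonuclease that degrades viral RNA, did likewise. It read 9.56, 9.47 and 8.70 in nephron sham arrays and 9.84, 10.54 and 10.59 after IRI (1.08 ± 0.24, adjusted p = 3.0e-04), and 10.51, 10.39 and 10.44 in endothelial sham arrays and 9.13, 9.36 and 9.27 after IRI (-1.19). Both genes thus had groups apart in both lines, in opposite directions. Rtp4 read 6.18, 5.65 and 6.19 in nephron sham arrays and 6.79, 7.44 and 6.55 after IRI, a rise of 0.92 ± 0.25 (adjusted p = 0.0032) that was not called without IRI replicate 2. It fell by 1.10 in the interstitium and 1.12 in the myeloid line. Ifi35, a partner of other interferon-induced proteins, rose in the nephron by 0.57 and fell in the endothelium by 0.93 and in the myeloid line by 0.56.

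The remaining effectors changed in fewer lines. Bst2 (tetherin), which holds budding virions to the cell surface, fell in the myeloid line from 10.86, 10.82 and 10.89 to 9.93, 9.84 and 9.90, by 0.97. In the other lines its differences were 0.03, 0.25 and -0.02, with no call. Gbp3, a guanylate-binding GTPase, fell in the myeloid line by 0.97, not called without IRI replicate 2, and Xaf1, an antagonist of apoptosis inhibitors, fell there by 0.77. Of the dynamin-like GTPases, Mx2 fell in the myeloid line by 0.55 and Mx1 rose in the endothelium by 0.34 (adjusted p = 0.013). The myeloid Mx2 values were close to the filter, at 5.61, 5.67 and 5.29 after sham and 5.02, 4.88 and 5.02 after IRI. In the nephron line every value of these 2 genes lay between 4.71 and 5.71, also close to the filter. Ifi27 fell in the endothelium by 0.66, a call lost without IRI replicate 2.

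The 3 Ifitm genes, neighbours with similar protein products, gave the most divergent responses. Ifitm1 went from 12.39, 12.43 and 12.55 to 10.73, 10.04 and 10.29 in the interstitium, from 9.82, 10.04 and 9.56 to 11.37, 11.24 and 11.46 in the endothelium and from 10.19, 10.48 and 10.05 to 12.64, 12.51 and 12.63 in the myeloid line. No pair overlapped, and the line with the highest level after sham surgery became lower than the myeloid and endothelial lines after IRI. Ifitm1 fell in the interstitium by 2.10 ± 0.15 (adjusted p = 2.9e-14), and it rose in the endothelium by 1.55 ± 0.15 (adjusted p = 2.4e-11) and in the myeloid line by 2.35 ± 0.15 (adjusted p = 7.1e-16). In the nephron the difference was 0.24 ± 0.15 (adjusted p = 0.21). The second Ifitm1 probe set gave -2.05, 1.60, 2.07 and 0.21. The L10a background also fell, from 10.55 and 10.57 to 8.13, 8.22, 8.42 and 8.47 (-2.25 ± 0.16, adjusted p = 1.4e-14), while in the wild-type background Ifitm1 differed by -0.12 with no call. After IRI the neutrophil marker sums were highest in the lines in which Ifitm1 rose. They also rose in the interstitium, where Ifitm1 fell, from 864 to 959 after sham to between 3330 and 4224. The part of neutrophils in the result was not tested.

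Ifitm3, which blocks viral entry at endosomes, was the member with the largest rise in the nephron. It read 8.11, 8.30 and 8.28 after sham and 9.78, 10.23 and 9.57 after IRI, a rise of 1.63 ± 0.16 (3.09-fold, adjusted p = 1.0e-10). The other lines were already high, between 12.39 and 12.77 after sham, and their differences of 0.11, 0.10 and -0.29 were not called. The wild-type background rose from 10.18 and 10.28 to 11.57, 10.97, 11.42 and 11.14 (1.04 ± 0.17, adjusted p = 1.9e-06), so that after IRI Ifitm3 was lower in the nephron than in that background by 1.42 ± 0.15 (adjusted p = 1.4e-10). In the L10a background Ifitm3 rose by 0.56 ± 0.17 (adjusted p = 0.0056), and after IRI the nephron differed from it by -2.36 ± 0.15. Ifitm2 rose by 0.34 ± 0.09 in the nephron and differed by 0.00, 0.04 and 0.20 in the others, with no call, although its other 2 probe sets gave called rises of 0.24 and 0.36 in the myeloid line. Probe sets of so similar genes can pick up each other's mRNA, and that was not tested.

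**Figure D4:**
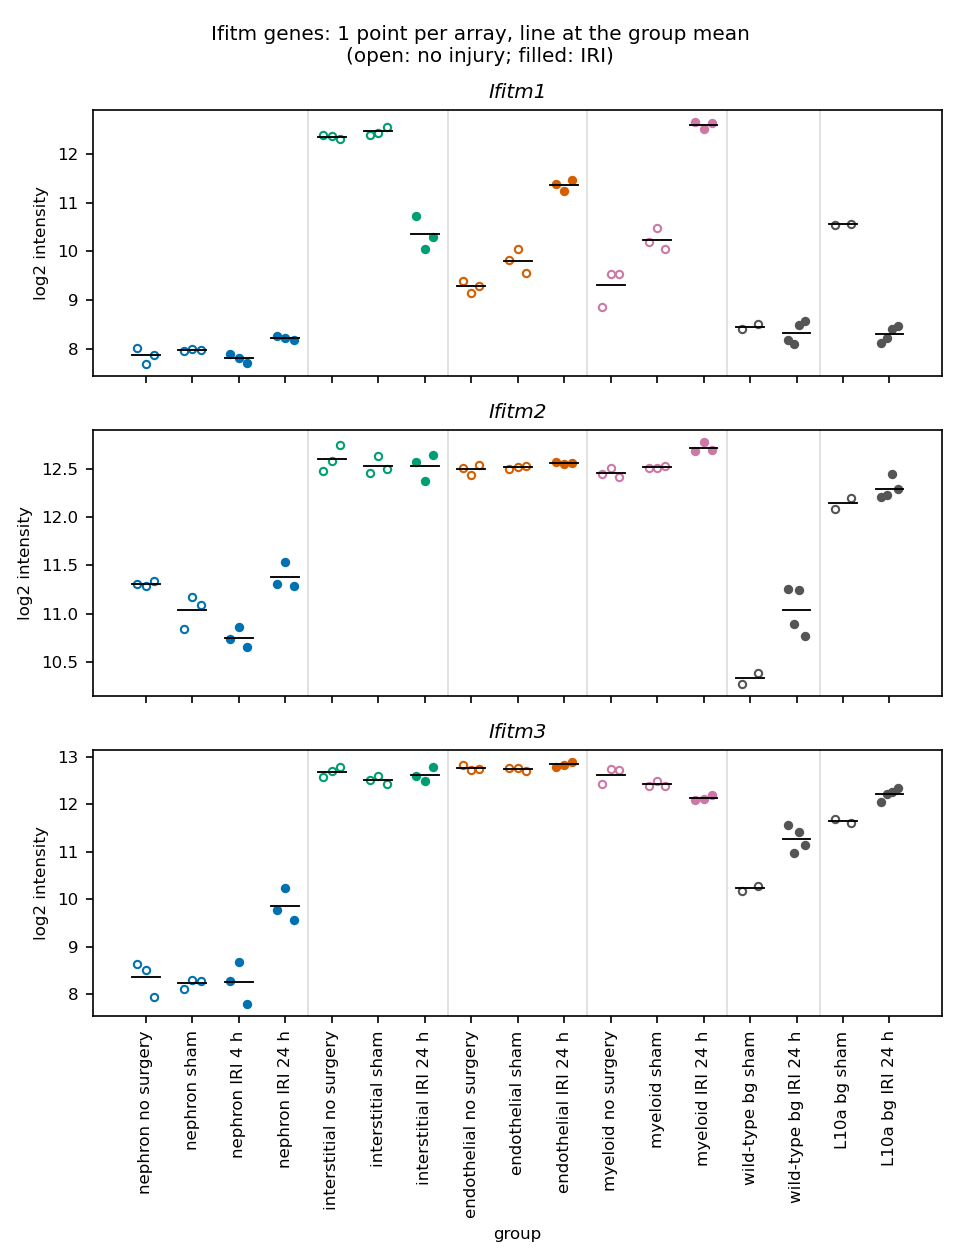
Each point is 1 array and each short line a group mean of log2 intensity for Ifitm1, Ifitm2 and Ifitm3, with open points for uninjured and filled points for IRI samples; bg stands for the background purifications. Ifitm1 falls in the interstitial line (-2.10) and rises in the endothelial (1.55) and myeloid lines (2.35), Ifitm2 varies little outside the nephron and wild-type background, and Ifitm3 rises in the nephron at 24 h (1.63) and in the wild-type (1.04) and L10a (0.56) backgrounds.

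Over the 4 lines, 11 members fell in the interstitium, the endothelium and the myeloid line alike: Cmpk2, Dhx58, Herc6, Ifih1, Irf7, Irf9, Oasl2, Parp14, Samd9l, Trim30a and Usp18. In the nephron 3 of these rose (Irf9, Oasl2 and Parp14), 3 fell (Cmpk2, Herc6 and Samd9l) and 5 were not called. The 11 are 28.9% of the 38 members, and 7.86% of all genes tested fell in the same 3 lines. A total of 10 members (26.3%) rose in the nephron and fell in at least 1 other line, as did 3.47% of all genes. These lines share no arrays, so each direction was measured on its own samples. Members with the ISRE core in their promoter had a median of 0.18 in the nephron (13 genes) and those without it 0.39 (15 genes). The same medians were -0.05 and -0.53 in the interstitium, -0.15 and -0.73 in the endothelium and -0.61 and -0.68 in the myeloid line.

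Whether the lines responded differently was tested directly, by setting the change in 1 line against the average change in the remaining 3. The myeloid change, in which age and injury cannot be told apart, enters each of these comparisons. In the nephron 24 members were called, all of them higher (31.1% of all genes called either way, 15.5% higher), with a median of 0.82 against -0.06 for all genes. The largest were Rtp4 (1.82 ± 0.29, adjusted p = 6.3e-06), Parp14 (1.74), Ifitm3 (1.66), Oasl2 (1.64), Irf1 (1.53) and Isg20 (1.47). In the myeloid line 17 were lower and 1, Ifitm1, was higher by 2.46 ± 0.17 (25.1% of all genes called either way, 12.1% lower and 13.0% higher). Ifit3 (-1.41), Usp18 (-1.23), Zbp1 (-1.08), Oasl1 (-1.06), Bst2 (-1.05) and Ifit1 (-0.96) led the lower members. In the endothelium 16 were lower and 5 higher (36.5% either way, 18.5% lower and 18.0% higher), led by Isg20 (-1.57), Herc6 (-1.32), Zbp1 (-1.31) and Rsad2 (-1.29) below and by Ifitm1 (1.38) and Ifit3 (1.07) above. In the interstitium 6 were higher and 6 lower (22.7% either way, 11.5% higher and 11.2% lower). Ifitm1 was far below the others there (-3.48 ± 0.17, adjusted p = 9.6e-18), followed by Irf1 (-1.04), and Oas1a (1.12) and Zbp1 (1.08) were above, as genes that fell in the endothelial and myeloid lines and were not called in the interstitium. The differences of Irf1 held for 1 of its probe sets: the second gave 0.06 in the interstitium, with the sign turned, and 0.29 in the nephron, neither called.

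At 4 h after clamping, few members had moved in the nephron. The count was 3 higher and 3 lower (25.0% of all genes called either way, 9.85% higher and 15.2% lower), and it was 3 in all without sham replicate 2, where Oasl1, Rsad2 and Ifitm2 were not called. Irf1 read 8.56, 9.07 and 8.34 at 4 h, against 7.73, 7.57 and 8.03 after sham, a rise of 0.88 ± 0.20 (adjusted p = 7.0e-04). The second Irf1 probe set gave 0.04 at 4 h, with no call. Oasl1 rose by 0.74 ± 0.23, a call also lost without 4 h replicate 2, and Rsad2 by 0.54 ± 0.19, no longer called without any of 5 arrays in turn. By the first probe set Irf1 at 4 h stood as far above sham as at 24 h, and the later and earlier arrays overlapped (difference -0.05). Isg20 fell by 0.89 ± 0.24 at 4 h, Cmpk2 by 0.65 ± 0.15 and Ifitm2 by 0.28 ± 0.09, the last a call also lost without sham replicate 3, 4 h replicate 1 or 4 h replicate 3. The 4 h and 24 h differences use the same sham arrays, which were collected at 24 h. For Isg20 the 4 h arrays (8.22, 8.60 and 8.26) overlapped with the nephron arrays without surgery (8.24, 9.00 and 8.23).

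Between 4 h and 24 h, 15 members rose and 2 fell in the nephron (33.6% of all genes called either way, 18.4% higher and 15.2% lower). The count was 11 without 24 h replicate 2 and 11 without 4 h replicate 3, each with 8 members higher and 3 lower. Isg20 went from 8.22, 8.60 and 8.26 to 9.84, 10.54 and 10.59, a rise of 1.97 ± 0.24 (adjusted p = 1.4e-08). Ifitm3 went from 8.28, 8.68 and 7.80 to 9.78, 10.23 and 9.57, a rise of 1.61 ± 0.16 (adjusted p = 1.7e-10). At 4 h Isg20 had been below every 24 h sham array, though not below the arrays without surgery, and Ifitm3 had overlapped with sham. At 24 h both were above every sham array. Oasl2 (0.81), Ifit2 (0.78), Oasl1 (0.75) and Rtp4 (0.73) came next, the calls of Oasl1 and Rtp4 being lost without 4 h replicate 3 and that of Rtp4 also without 24 h replicate 2 or 4 h replicate 1. Samd9l, at 10.40, 10.23 and 10.35 at 4 h, had not yet fallen, and it dropped by 1.73 ± 0.16 (adjusted p = 6.8e-11) between the times. Herc6 fell by 0.54.

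Sham surgery itself changed few members relative to mice without surgery. In the nephron 1 member was called, higher (3.74% of all genes called either way, 1.55% higher and 2.18% lower). In the interstitium 1 was higher and 2 lower (16.3%, 7.97% higher and 8.37% lower). In the endothelium 1 was lower (0.964%, 0.399% higher and 0.565% lower), and in the myeloid line 1 was higher and 7 lower (2.71%, 0.876% higher and 1.83% lower). In the myeloid line Ifitm1 rose by 0.93 ± 0.15 (adjusted p = 3.1e-04), and Xaf1 (-0.76), Oas2 (-0.73), Rsad2 (-0.66), Ifit2 (-0.61), Mx1 (-0.60), Cmpk2 (-0.53) and Mx2 (-0.42) fell. There 4 of 12 neutrophil markers rose as well, and their part in the result was not tested. Samd9l rose in the nephron (0.63) and the interstitium (0.54), Rtp4 (-0.70) and Usp18 (-0.56) fell in the interstitium, and Bst2 fell in the endothelium (-0.57). These counts are unstable: with 1 array left out they ran from 0 to 2 in the nephron, 0 to 4 in the interstitium, 0 to 2 in the endothelium and 2 to 9 in the myeloid line. When only the groups compared were fitted, none of these interstitial, endothelial and myeloid calls was made, and 4 were made in the nephron. Nephron mice without surgery were 6 weeks old and those with sham surgery 8 weeks, so age and surgery cannot be told apart there.

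The tagged lines were also set against the RNA purified from mice without Cre. Purified arrays of all groups had similar medians (105.8 to 128.4). Differences from background therefore compare relative levels within each sample and cannot show whether a line's signal exceeded carried-over RNA. After IRI, 31 members were higher in the endothelial line than in the wild-type background and none lower (54.2% of all genes called either way, 28.5% higher), and 28 were higher and 3 lower in the myeloid line (63.4%, 29.9% higher). In the interstitium the split was 12 and 12 (40.6%, 20.5% higher and 20.1% lower), or 8 and 7 when only those groups were fitted, and in the nephron 3 were higher and 20 lower (49.3%, 27.7% higher and 21.6% lower). Of the 14 members that rose in the nephron, Ifi35, Ifitm2 and Isg20 were above the wild-type background after IRI. Another 7 were below it (Adar, Ifitm3, Oasl1, Oasl2, Parp14, Rsad2 and Trim25), and 4 were not called (Eif2ak2, Irf1, Irf9 and Rtp4). Isg20 was the furthest above, by 1.95 ± 0.22 (adjusted p = 1.1e-09), and Ifit1, not called in the nephron response, the furthest below, by 2.27 ± 0.26. Against the L10a background after IRI, 1 member was higher and 30 lower in the nephron (45.5% of all genes called either way, 22.5% higher and 23.1% lower), and 7 were higher and 22 lower in the interstitium (42.7%, 17.6% higher and 25.1% lower). In the endothelium 28 were higher and 3 lower (39.5%, 18.9% higher and 20.6% lower), and in the myeloid line 22 and 8 (50.2%, 21.3% higher and 29.0% lower). Of the 14 nephron risers, Isg20 was above the L10a background (by 1.59 ± 0.22), Oasl1 was not called and the other 12 were below it, among them Rtp4 (-2.32) and Irf1 (-1.14). How all genes that rose in the nephron split against either background was not counted.

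The backgrounds had responses of their own. In wild-type mice 5 members rose and 11 fell (43.2% of all genes called either way, 22.9% higher and 20.3% lower; median -0.14), and in L10a mice 8 rose and 9 fell (45.7%, 23.2% higher and 22.5% lower; median 0.14). The L10a count was 11 without sham replicate 2. Of the 14 nephron risers, Ifitm2, Ifitm3, Isg20, Oasl1 and Trim25 also rose in the wild-type background, Eif2ak2, Oasl2 and Parp14 fell there, and the other 6 were not called. The same split was not counted over all genes that rose in the nephron, so it cannot be read as particular to the members. Of the members that fell, 10 of the 18 in the interstitium, 10 of the 20 in the endothelium and 11 of the 25 in the myeloid line also fell in the wild-type background. These shares, 55.6%, 50% and 44%, stand beside 59.9%, 46% and 44.4% of all genes that fell in those lines. Stat2 (-1.29) and Usp18 (-0.90) were among the largest background falls. Gbp3 rose in the L10a background by 1.49 ± 0.30, from 7.73 and 7.60 to 8.71, 9.45, 9.14 and 9.31, and differed by -0.20 in the wild-type background. How much of each line's response came from untagged RNA was not tested.

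In total kidney RNA no member was called among 33 tested (4.93% of all genes called), with 6 at an unadjusted p under 0.05 and a median of -0.01. Oas3, Mx1, Mx2, Dhx58 and Xaf1 did not pass the filter on low values there. The count was 7 without IRI replicate 3, the array that stood apart, and 3 without IRI replicate 1. The calls over all genes rest on single arrays: they number 682 with all 6 arrays, 0 without sham replicate 1 or sham replicate 3, 4 without sham replicate 2 and 47 with the replicate number as a block. Oasl1 read 6.08, 5.96 and 6.06 after sham and 6.73, 7.16 and 7.83 after IRI, without overlap, for a difference of 1.20. It was called in both of those smaller fits. Ifit3 read 7.19, 7.35 and 7.64, then 7.11, 6.34 and 6.31.

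The differences of interferon genes themselves were small. Among 13 ligand genes tested, none was called in the nephron or the myeloid line, 2 rose and 1 fell in the interstitium and 3 rose in the endothelium (23.1%). Of all genes, 35.0% were called either way in the nephron and 34.1% in the myeloid line. In the interstitium 22.7% of all genes rose and 22.8% fell, and in the endothelium 25.1% rose, close to the share of the ligands. Ifnb1 differed by -0.05 in the nephron, 0.17 in the interstitium (called), 0.08 in the endothelium and 0.02 in the myeloid line, and Ifng by -0.01, 0.13, -0.05 and 0.03, none called. The largest called ligand change was Ifnl2 in the interstitium, at 0.56.

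The counts that follow for other genes of the pathway can be read beside the shares of all genes, which were 16.6% higher and 18.4% lower in the nephron, 22.7% and 22.8% in the interstitium, 25.1% and 24.3% in the endothelium and 16.3% and 17.8% in the myeloid line. Of 9 receptors and their kinases, 6 rose in the nephron, 4 rose and 1 fell in the interstitium, 3 rose and 3 fell in the endothelium, and 3 rose and 1 fell in the myeloid line. Ifngr1, the ligand-binding chain of the interferon-gamma receptor, rose by 0.89 ± 0.17 in the nephron, 0.74 in the interstitium and 0.57 in the myeloid line, with 0.28 and no call in the endothelium. Ifnar1 rose in the nephron (0.36) and the interstitium (0.49), fell in the endothelium (-0.44) and was not called in the myeloid line (-0.11). Tyk2, the kinase that sits on Ifnar1, fell in the endothelium by 1.87 ± 0.15 (adjusted p = 3.0e-13) and in the myeloid line by 0.66.

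Transcription factors, sensors and inhibitors outside the members varied by line. Of 7 factors, 2 rose and 1 fell in the nephron, 1 rose and 2 fell in the interstitium, 1 rose and 5 fell in the endothelium, and 1 rose and 4 fell in the myeloid line. Stat3 rose in all 4 (0.98, 0.51, 0.75 and 0.87) and in total RNA (1.16, a call lost in 5 of the 6 fits without 1 array), Irf2 fell in the endothelium (-1.56) and the interstitium (-0.49), Irf4 in the endothelium (-1.14) and the myeloid line (-1.30), and Irf5 in the nephron (-0.99), the interstitium (-0.33) and the endothelium (-0.38). Of 12 sensors and adaptors, 3 rose in the nephron, 3 rose and 3 fell in the interstitium, and 4 rose and 5 fell in each of the endothelial and myeloid lines. Tlr8, a receptor for single-stranded RNA, rose in the interstitium (1.61), the endothelium (1.90) and the myeloid line (1.29), and Mavs, the adaptor of the RNA helicases, fell in the interstitium (-0.62), the endothelium (-1.37) and the myeloid line (-0.80). Of 9 inhibitors, 4 rose and 2 fell in the nephron, 3 rose and 2 fell in the interstitium, 6 rose and 2 fell in the endothelium, and 3 rose and 3 fell in the myeloid line. Socs3, which blocks cytokine receptor kinases, rose by 2.48 ± 0.26 in the nephron, 1.88 in the interstitium, 2.85 in the endothelium, 2.43 in the myeloid line and 2.10 in total RNA, where the call was lost without any 1 of the sham arrays.

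A list of further interferon-induced genes outside the 41 gave the following counts. Of 34, 8 rose and 4 fell in the nephron (median 0.00), 4 rose and 11 fell in the interstitium (-0.18), 3 rose and 26 fell in the endothelium (-0.77) and 5 rose and 21 fell in the myeloid line (-0.66), while 1 of 29 rose in total RNA. Ms4a4c fell in the endothelium by 2.62 ± 0.13, and the changes of Ifi44l (-3.67 ± 0.63) and Ifi203 (-2.34 ± 0.29) were also called. Plscr1, a phospholipid scramblase, rose in the nephron by 0.90 and in total RNA by 0.93, the latter a call lost without any 1 of the sham arrays or without IRI replicate 2. Slfn1 rose in the interstitium by 1.76, in the endothelium by 1.22 and in the myeloid line by 1.97.

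Genes driven chiefly by interferon-gamma gave 6 rises and 1 fall of 24 in the nephron, 12 falls in the interstitium, 1 rise and 11 falls in the endothelium, and 1 rise and 11 falls in the myeloid line. Ciita, the master regulator of MHC class II genes, fell in the interstitium (-1.18), the endothelium (-2.23) and the myeloid line (-2.71). Cd74, the class II chaperone, rose in the nephron (1.03 ± 0.32, adjusted p = 0.011) and fell in the interstitium (-0.84) and in total RNA (-1.27, a call lost in 5 of the 6 fits without 1 array). The immunoproteasome subunit gene Psmb8 rose in the nephron (0.94) and fell in the endothelium (-1.25) and the myeloid line (-0.98). The chemokine Cxcl9 fell in the myeloid line by 2.32 and Cxcl10 by 1.49, while Cd274 (PD-L1) rose there by 2.03. The macrophage marker shifts given above run beside these, and their part in the result was not tested.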

How the data were processed

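Kidney RNA was hybridised to Affymetrix Mouse Gene 1.0 ST arrays: 51 arrays of ribosome-purified RNA in 17 groups and 6 arrays of total RNA in 2. The authors deposited linear intensities, made with RMA in Affymetrix Expression Console 1.3.1 per the submitters' processing notes. A log2 scale had been planned for, so log2 was taken here. Purified and total RNA had been normalized apart and were fitted apart. Of 35556 probe sets, 21789 had 1 symbol, 1621 several and 12146 none. Genes over log2 5 in at least 3 arrays were tested with limma 3.58.1 (R 4.3.3): 19302 genes with 34 residual degrees of freedom, and 13825 genes with 4 for total RNA. Calls required a Benjamini-Hochberg adjusted p under 0.05 over all genes. The scripts were tested on simulated data. Up to 6 called members with the largest rise and 6 with the largest fall per comparison were named, and Irf1, Irf7, Irf9, Stat2, Usp18 and the Ifitm genes always. From the other lists, up to 4 called genes were named, and Ifnb1, Ifng, Ifnar1 and Ifngr1 always; 1 further gene of that rule is not reported here. Further members, and Cx3cr1, were named by role after their values were seen. Alternatives were quantile normalization, no filter, only the groups compared, a replicate block and each array left out. Members and lists were chosen with earlier results of these data known. The number of arrays limits the precision.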

Additional observations from a re-analysis of the deposited data

Results flagged for a closer look

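In the groups of 4 arrays, 7 of 76 tests found a single array apart from the other 3, where chance gives about 5%. The test sets the gap to the nearest array against the range of the group, so a small gap can be flagged. In the L10a background after IRI, Ifit3 was 11.22 in replicate 1 against 10.79 to 10.85, Oas3 was 6.30 in replicate 4 against 6.07 to 6.08, Rsad2 was 10.16 in replicate 4 against 9.38 to 9.50, Ifih1 was 9.52 in replicate 2 against 9.58 in the others, and Trim25 was 11.18 in replicate 2 against 10.89 to 10.91 (log2 intensity). In the wild-type background after IRI, replicate 1 was high for Ifi35, at 8.59 against 8.04 to 8.12, and for Ifi27, at 11.25 against 9.56 to 9.77.

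The response at 24 h differed between lines by the test of each line against the mean of the others, in which the myeloid change also holds a difference in age. The number of members called, of 38, was 24 for the nephron, 12 for the interstitium, 21 for the endothelium and 18 for the myeloid line. Of all genes, 31.1%, 22.7%, 36.5% and 25.1% were called either way in the same comparisons. The leading nephron differences were 1.82 for Rtp4 and 1.74 for Parp14. In the interstitium they were 1.12 for Oas1a, 1.08 for Zbp1, -3.48 for Ifitm1 and -1.04 for Irf1, whose second probe set gave 0.06 with no call. In the endothelium they were 1.38 for Ifitm1, 1.07 for Ifit3, -1.57 for Isg20 and -1.32 for Herc6. In the myeloid line they were 2.46 for Ifitm1, -1.41 for Ifit3 and -1.23 for Usp18.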

How the results depend on the processing

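For 25 comparisons, the count of members called stayed within 1.5 times in 92 of 100 settings that kept all arrays and in 229 of 250 that left out 1, and no called member turned direction in any of them. Fitting only the groups compared gave 4 members for nephron sham against no surgery, 0 for the interstitium, the endothelium and the myeloid line, and 15 for the interstitium against the wild-type background after IRI. Quantile normalization gave 2 for endothelial sham against no surgery. Fitting all 57 arrays together gave 7 members in total RNA. With 1 array left out, the counts ran from 11 to 19 for the nephron at 24 h, 3 to 7 at 4 h, 11 to 16 between the times, 11 to 16 for the L10a background and 0 to 7 for total RNA. For sham against no surgery they ran from 0 to 2 in the nephron, 0 to 4 in the interstitium, 0 to 2 in the endothelium and 2 to 9 in the myeloid line. The causes were not tested. The second Irf1 probe set gave -0.05 in the nephron and 0.06 in the interstitium against the other lines, both of the opposite sign. The latter, and the comparisons of the lines with the L10a background after IRI, were tried after seeing the data. The labels did not pair samples by replicate number, and 3 arrays per group cannot exclude pairing. Of 6 IRI and sham arrays per line, those that deviated most like their own number were 4 in the nephron and 3 in the interstitium. They were 0 in the endothelium, 2 in the myeloid line and 2 in total RNA. The fit with the replicate number as a block gave 2 members for nephron sham against no surgery and 18 for the nephron at 24 h.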
